A study of Homo sapiens with 16 samples.

Results

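The 29 HOX cluster genes described here are all genes on the array whose platform symbol reads HOX, a cluster letter A to D and a number. They were 29 of the 18239 genes that had a probe set with a single gene symbol. Each was represented by its probe set of highest mean over the 16 arrays, out of 49 probe sets in all. The HOXB cluster on chromosome 17 gave 10 genes, the HOXC cluster on chromosome 12 gave 9 and the HOXD cluster on chromosome 2 gave 9. HOXA2 alone stood for the HOXA cluster on chromosome 7, so the comparison of clusters rests on B, C and D, and other HOXA genes were not analysed here.

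The cells were SK-N-SH, a line from a human neuroblastoma. Its cultures mix neuroblast-like, adrenergic cells with flat, substrate-adherent, mesenchymal cells. Total RNA was hybridised to U219 arrays in 4 groups of 4 arrays, namely cells given 10 µM risperidone for 6, 24 or 48 h and untreated cells, and the study followed expression over the exposure. Risperidone is an antipsychotic that acts as an antagonist at dopamine and serotonin receptors. The protocol in the labels gives the control cells the solvent DMSO, while their sample labels read untreated, and no harvest time is given for them, so the same 4 control arrays stood against every exposure time and any effect of time in culture cannot be told apart from that of the drug. Replicates are called biological in the labels, but separate cultures are not described, so a p-value here reflects the spread between arrays, which may be technical. All values are log2 expression values as deposited.

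HOX genes encode homeodomain transcription factors that give cells along the head-to-tail axis their positional identity. Within a cluster, genes of low number lie at the end expressed early and towards the head, and genes of high number at the end expressed late and towards the tail. Genes of the same number in different clusters are paralogues, copies of one ancestral gene. HOX proteins bind DNA together with the TALE homeodomain cofactors of the PBX, MEIS and PKNOX families. Polycomb proteins keep the clusters silent, Trithorax proteins keep them active, and retinoic acid is a classic inducer of the low-numbered genes, also in neuroblastoma cells.

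Promoter windows of 300 bases, from 250 bases before to 50 bases after a start that RefSeq gives in GRCh38.p14, were at hand for 12 of the 29 genes. Those of members that changed at all 3 exposure times are shown because their genes went in different directions. HOXC4 and HOXC5 share 1 annotated start and therefore 1 window at chr12:54016638-54016937 (plus strand). RefSeq gives HOXC6 that start too, and whether the transcripts measured begin there was not tested. HOXC4 rose and HOXC5 fell. Both changes were small. The rise of HOXC4 passed at no time with cyclic loess, and the HOXC5 call at 6 h was lost in 14 of 26 alternatives. HOXD3, which rose, has its window at chr2:176157057-176157356 (plus strand), which lies inside the annotated span of the gene (chr2:176152529-176173098) and not at its outer start. HOXD8, which fell, has its window at chr2:176129455-176129754 (plus strand). Capitals mark the CCAAT box (CCAAT, or ATTGG where it lies on the other strand).
HOXC4 and HOXC5: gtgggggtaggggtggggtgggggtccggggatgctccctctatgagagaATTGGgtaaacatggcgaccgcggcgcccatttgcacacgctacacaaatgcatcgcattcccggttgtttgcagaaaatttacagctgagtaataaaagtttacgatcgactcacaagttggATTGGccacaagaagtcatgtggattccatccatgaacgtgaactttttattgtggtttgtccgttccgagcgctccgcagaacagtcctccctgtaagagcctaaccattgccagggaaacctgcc
HOXD3: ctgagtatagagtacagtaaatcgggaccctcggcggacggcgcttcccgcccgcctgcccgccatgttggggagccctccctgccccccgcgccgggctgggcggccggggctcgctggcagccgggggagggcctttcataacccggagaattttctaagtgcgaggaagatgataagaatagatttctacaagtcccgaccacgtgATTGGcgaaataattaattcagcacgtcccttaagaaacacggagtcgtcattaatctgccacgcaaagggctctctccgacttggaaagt
HOXD8: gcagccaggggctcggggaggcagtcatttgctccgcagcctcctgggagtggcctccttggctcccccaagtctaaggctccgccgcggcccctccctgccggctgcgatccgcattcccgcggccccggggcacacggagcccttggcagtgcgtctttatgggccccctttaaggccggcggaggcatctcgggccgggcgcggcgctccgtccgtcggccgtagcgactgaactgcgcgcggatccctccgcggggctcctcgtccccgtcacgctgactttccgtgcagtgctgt
The shared HOXC4 and HOXC5 window holds 2 CCAAT boxes and the HOXD3 window holds 1, while the HOXD8 window holds none. The CCAAT box occurs in 34.6% of all 34796 windows of this length. A PBX-HOX site (TGATNNAT, in 7.42% of all windows), a MEIS site (TGACAG, in 15.8%) and a TATA box (TATAAA, in 11.6%), each searched on both strands, were not found in these 3 windows. The HOXD8 window is the richest of the 3 in G and C, at 71.7% with 34 CpG dinucleotides, against 58% and 25 for HOXD3 and 51.7% and 15 for HOXC4. The medians over all windows are 58.7% and 14.

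Of the 29 genes, 19 lay above the dim limit and were tested, and 10 were dim: HOXA2, HOXB1, HOXB6, HOXB7, HOXB8, HOXC11, HOXC12, HOXD11, HOXD12 and HOXD13. A gene was dim when its mean over the 16 arrays was among the lowest 25%, below 3.65. HOXD1, at 3.66, stood just inside that limit and HOXD13, at 3.62, just outside it. Group means of the dim genes lay between 2.84 and 3.71, their changes lay between -0.15 and 0.16, and 0 of 10 passed the test when every gene was tested (limma, lowest adjusted p = 0.117).

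The largest changes among the HOX genes were falls of HOXB2 and HOXC8, each from the earliest time measured onwards. A smaller fall of HOXD8, HOXD9, HOXC6 and HOXC5 accompanied them at all 3 times, while HOXC4 and HOXD3 rose slightly. At 6 h, 10 of the 19 tested genes passed the test, 4 higher and 6 lower (limma, Benjamini-Hochberg adjusted p below 0.05). That is 52.6% of the members, beside 53.3% of all 13680 genes tested, so the number of HOX genes that changed was near that of genes in general. By direction, 31.6% of the members were lower, beside 16.7% of all genes, and 21.1% were higher, beside 36.6% of all genes. At 24 h, 9 of 19 passed, 3 higher and 6 lower, that is 47.4% beside 52.1% of all genes, 15.8% higher beside 35.3% and 31.6% lower beside 16.9%. At 48 h, 10 of 19 passed, 3 higher and 7 lower, that is 52.6% beside 57% of all genes, 15.8% higher beside 36% and 36.8% lower beside 21%. Past the test and at least 1.5-fold lower were 3 members at 6 h, 3 at 24 h and 4 at 48 h, against backgrounds of 6.74%, 6.45% and 7.68% of all genes. None of the 19 was at least 1.5-fold higher at any of these times, where 4.43%, 4.93% and 7.62% of all genes were. The median change of the 19 was -0.06 at 6 h, -0.06 at 24 h and -0.03 at 48 h, beside 0.09, 0.09 and 0.07 over all genes. These shares describe the lists and were not tested against each other. With cyclic loess 1 member was higher and 7 lower at each of the 3 times. That normalization also shifted all genes. It called 6374, 6430 and 7565 of the 13680 at 6, 24 and 48 h. Of these 49.4%, 49.5% and 49% were higher, against 68.7%, 67.6% and 63.1% of calls as deposited. Without HOXD10, whose probe sets disagree, the counts as deposited were 3 higher and 6 lower at 6 h and 2 higher and 6 lower at 24 h, of 18 tested.

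In total 11 members passed against untreated cells at 1 or more times, and 8 of them at all 3 times, 6 lower and 2 higher. These are 57.9% of the members at 1 or more times, beside 72.1% of all genes, and 42.1% at all 3 times, beside 37.6%. Lower at all 3 times were 31.6% of the members, beside 13% of all genes, and higher at all 3 times 10.5%, beside 24%. The 3 comparisons share the untreated arrays and are therefore not independent of each other.

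**Figure D1:**
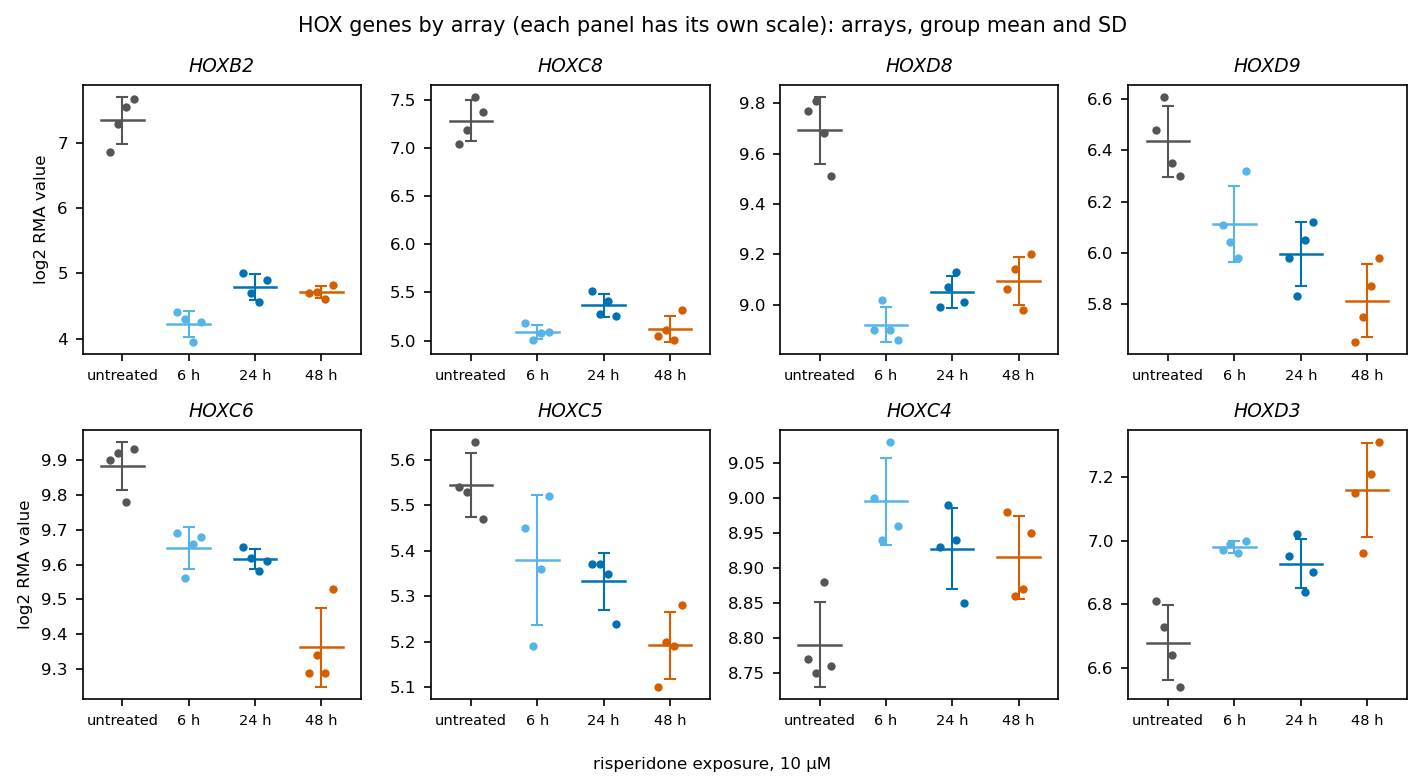
Log2 RMA value (vertical axis, a scale of its own in each panel) of 8 HOX genes in each of the 16 arrays, by risperidone exposure (horizontal axis, untreated, then 6, 24 and 48 h). Points are arrays, long lines are group means and bars are SDs. All treated arrays of HOXB2 (3.95 to 5) and HOXC8 (5.01 to 5.52) lie below their untreated arrays (6.86 to 7.67 and 7.04 to 7.53), and the means of HOXC4 and HOXD3 are slightly higher in treated cells.

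HOXB2, a low-numbered gene known for its part in patterning the hindbrain, fell the most. It is annotated at chr17:48542655-48545109. Its log2 values were 4.41, 4.3, 3.95 and 4.26 at 6 h, 5, 4.7, 4.57 and 4.9 at 24 h and 4.7, 4.71, 4.61 and 4.83 at 48 h, against 6.86, 7.28, 7.55 and 7.67 in untreated cells. No treated array reached the lowest untreated array. The 6 h mean, 4.23, lay below the lowest array median (4.5), where the dim limit was 3.65. The change was -3.11 ± 0.14 at 6 h (SE, n = 4 arrays a group, 8.63-fold lower, limma adjusted p = 9.76e-12), -2.55 ± 0.14 at 24 h (5.85-fold lower, adjusted p = 1.48e-10) and -2.63 ± 0.14 at 48 h (6.18-fold lower, adjusted p = 7.49e-11). HOXB2 had 1 probe set on the array, so no second measurement stands beside it. Other HOXB genes behaved differently: HOXB4, a gene best known in blood stem cells, rose at 6 h by 0.31 ± 0.1 (adjusted p = 0.0106) and at 48 h by 0.29 ± 0.1 (adjusted p = 0.0161), with 0.2 ± 0.1 at 24 h (adjusted p = 0.0933). Its values were 5.13, 4.65, 5 and 4.87 at 6 h, 4.83, 4.97, 4.6 and 4.78 at 24 h and 4.81, 4.75, 4.93 and 5.05 at 48 h, against 4.52, 4.62, 4.57 and 4.68 in untreated cells. Treated and untreated arrays of HOXB4 overlapped at 6 h and 24 h and not at 48 h. With cyclic loess, a stronger normalization, HOXB4 passed at neither time (adjusted p = 0.065 and 0.0855). Without 48 h replicate 4 it did not pass at 48 h (adjusted p = 0.0587), without 24 h replicate 3 it passed at 24 h (adjusted p = 0.0352), and its other probe set changed by 0.03, 0.04 and 0 at 6, 24 and 48 h.

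HOXB3, HOXB5, HOXB9 and HOXB13, the other tested members of that cluster, did not pass at any time. HOXB3, the neighbour of HOXB2 in the cluster, changed by 0.07, 0.02 and -0.03 at 6, 24 and 48 h. A dimmer probe set of HOXB3, below the limit for testing, changed by -0.5, -0.33 and -0.44 (adjusted p = 7.2e-06, 0.00068 and 2.14e-05 when no gene was left out), so these probe sets of HOXB3 disagree. HOXB5 passed as lower at each time when untreated replicate 3 was left out (changes -0.22, -0.21 and -0.22, adjusted p = 0.0178, 0.0216 and 0.0162). HOXB9 passed as higher at 48 h without 48 h replicate 1 (0.18, adjusted p = 0.0267).

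HOXC8, a mid-cluster gene that in mice patterns the thoracic spine and motor neurons, fell next in size. It is annotated at chr12:54008985-54012769. Its log2 values were 5.18, 5.01, 5.08 and 5.09 at 6 h, 5.52, 5.28, 5.41 and 5.26 at 24 h and 5.05, 5.11, 5.01 and 5.32 at 48 h, against 7.04, 7.19, 7.53 and 7.37 in untreated cells. The treated and untreated arrays did not overlap. It changed by -2.19 ± 0.09 at 6 h (4.57-fold lower, limma adjusted p = 3.82e-12), -1.92 ± 0.09 at 24 h (3.77-fold lower, adjusted p = 2.4e-11) and -2.16 ± 0.09 at 48 h (4.47-fold lower, adjusted p = 3.87e-12). A second, dim probe set of HOXC8 moved in the same direction by less, -0.33, -0.35 and -0.33, and the mean of both gave -1.26, -1.13 and -1.24.

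HOXC6 and HOXC5, the next genes of the HOXC cluster, fell by less, and the fall of HOXC6 deepened at 48 h. HOXC6 had values of 9.69, 9.56, 9.66 and 9.68 at 6 h, 9.65, 9.62, 9.58 and 9.61 at 24 h and 9.29, 9.34, 9.29 and 9.53 at 48 h, against 9.9, 9.92, 9.78 and 9.93 in untreated cells. Its treated arrays all lay below the untreated arrays. It changed by -0.23 ± 0.06 at 6 h (adjusted p = 0.00198), -0.27 ± 0.06 at 24 h (adjusted p = 0.000671) and -0.52 ± 0.06 at 48 h (adjusted p = 4.26e-07). A second probe set of HOXC6 fell likewise by 0.15, 0.18 and 0.47 on the log2 scale (changes of -0.15, -0.18 and -0.47, adjusted p = 0.0336, 0.0115 and 1.06e-06), and another, near the dim limit, changed by -0.03, 0.05 and 0.06 without passing. HOXC5 changed by -0.17 ± 0.06 at 6 h (adjusted p = 0.0422), -0.21 ± 0.06 at 24 h (adjusted p = 0.0115) and -0.35 ± 0.06 at 48 h (adjusted p = 0.000176). Its values were 5.45, 5.19, 5.36 and 5.52 at 6 h, 5.37, 5.37, 5.35 and 5.24 at 24 h and 5.1, 5.2, 5.19 and 5.28 at 48 h, against 5.54, 5.53, 5.64 and 5.47 in untreated cells. Only the 6 h arrays of HOXC5 overlapped with the untreated arrays, and that call was lost in 14 of 26 alternatives, among them without any 1 of untreated replicates 1, 2 and 3, 6 h replicates 2 and 3, 24 h replicate 3 and 48 h replicate 2 (adjusted p between 0.0505 and 0.168).

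HOXC4 stood apart from its neighbours by rising. RefSeq places the starts of HOXC4, HOXC5 and HOXC6 at the same base of chromosome 12, 54016888, with ends at 54056030, 54035361 and 54030823, so the 3 genes overlap. Values of HOXC4 were 9, 8.94, 9.08 and 8.96 at 6 h, 8.93, 8.99, 8.94 and 8.85 at 24 h and 8.98, 8.86, 8.87 and 8.95 at 48 h, against 8.77, 8.75, 8.88 and 8.76 in untreated cells. The groups did not overlap at 6 h and overlapped at 24 h and 48 h. It changed by 0.2 ± 0.05 at 6 h (adjusted p = 0.00206), 0.14 ± 0.05 at 24 h (adjusted p = 0.0263) and 0.12 ± 0.05 at 48 h (adjusted p = 0.038). None of these 3 rises passed with cyclic loess (adjusted p = 0.0711, 0.478 and 0.528). The rises at 24 h and 48 h were also lost when untreated replicate 1, 2 or 4 was left out. So were the 24 h call without its replicate 2 or 3 and the 48 h call without its replicate 1 or 4 (adjusted p between 0.0522 and 0.112 in all). HOXC9, a gene of trunk identity, did not pass at 6 h or 24 h (-0.01 and -0.13, adjusted p = 0.966 and 0.209) and fell at 48 h by 0.23 ± 0.08 on the log2 scale (change -0.23, adjusted p = 0.0256). That fall of HOXC9 was lost when untreated replicate 1 or 2, or replicate 1 or 4 of the 48 h group, was left out (adjusted p between 0.0522 and 0.0967). HOXC10 and HOXC13 did not pass at any time.

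In the HOXD cluster the paralogue of HOXC8, HOXD8, fell as well. HOXD8 is annotated at chr2:176129705-176132695. Its log2 values were 8.9, 9.02, 8.9 and 8.86 at 6 h, 8.99, 9.07, 9.13 and 9.01 at 24 h and 9.06, 9.14, 8.98 and 9.2 at 48 h, against 9.77, 9.81, 9.68 and 9.51 in untreated cells. Treated and untreated arrays of HOXD8 did not overlap. The change was -0.77 ± 0.07 at 6 h (1.71-fold lower, limma adjusted p = 3.45e-08), -0.64 ± 0.07 at 24 h (1.56-fold lower, adjusted p = 3.47e-07) and -0.6 ± 0.07 at 48 h (1.51-fold lower, adjusted p = 5.99e-07). Its other probe set changed by -0.71, -0.64 and -0.55.

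HOXD9, which in mice acts in the forming limb and lower spine, fell at each time, and was lower at 48 h than at 6 h. It lies at chr2:176122719-176124937. Its values were 6.11, 6.04, 5.98 and 6.32 at 6 h, 5.98, 5.83, 6.05 and 6.12 at 24 h and 5.65, 5.75, 5.87 and 5.98 at 48 h, against 6.48, 6.61, 6.35 and 6.3 in untreated cells. The groups overlapped at 6 h by 1 array and were apart at 24 h and 48 h. HOXD9 changed by -0.32 ± 0.09 at 6 h (adjusted p = 0.00638), -0.44 ± 0.09 at 24 h (adjusted p = 0.000576) and -0.62 ± 0.09 at 48 h (1.54-fold lower, adjusted p = 1.39e-05). Its second probe set changed by -0.35, -0.36 and -0.57 and passed at 48 h only (adjusted p = 0.0982, 0.0915 and 0.00865).

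HOXD3, which acts in mice in the upper neck vertebrae, had the largest rise of the members at 48 h, while HOXB4 rose slightly more at 6 h and HOXD10 at 24 h. It had values of 6.97, 6.99, 6.96 and 7 at 6 h, 6.95, 7.02, 6.84 and 6.9 at 24 h and 7.15, 6.96, 7.21 and 7.31 at 48 h, against 6.81, 6.73, 6.64 and 6.54 in untreated cells. Every treated array stood above every untreated array. HOXD3 rose by 0.3 ± 0.07 at 6 h (adjusted p = 0.00167), 0.25 ± 0.07 at 24 h (adjusted p = 0.0067) and 0.48 ± 0.07 at 48 h (1.39-fold, adjusted p = 1.52e-05). With cyclic loess it did not pass at 6 h or 24 h (adjusted p = 0.0598 and 0.171). HOXD4, whose annotated span overlaps that of HOXD3, and HOXD1 did not pass against untreated cells at any time. HOXD10 rose by 0.24 ± 0.07 at 6 h (adjusted p = 0.00576) and 0.28 ± 0.07 at 24 h (adjusted p = 0.00184), but a second, dim probe set of HOXD10 changed by -0.2, -0.28 and -0.26 at 6, 24 and 48 h, so its direction is unsettled. The probe set that rose was low as well. It averaged 3.97, 4.01 and 3.87 at 6, 24 and 48 h, against 3.73 in untreated cells, where the dim limit was 3.65.

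**Figure D2:**
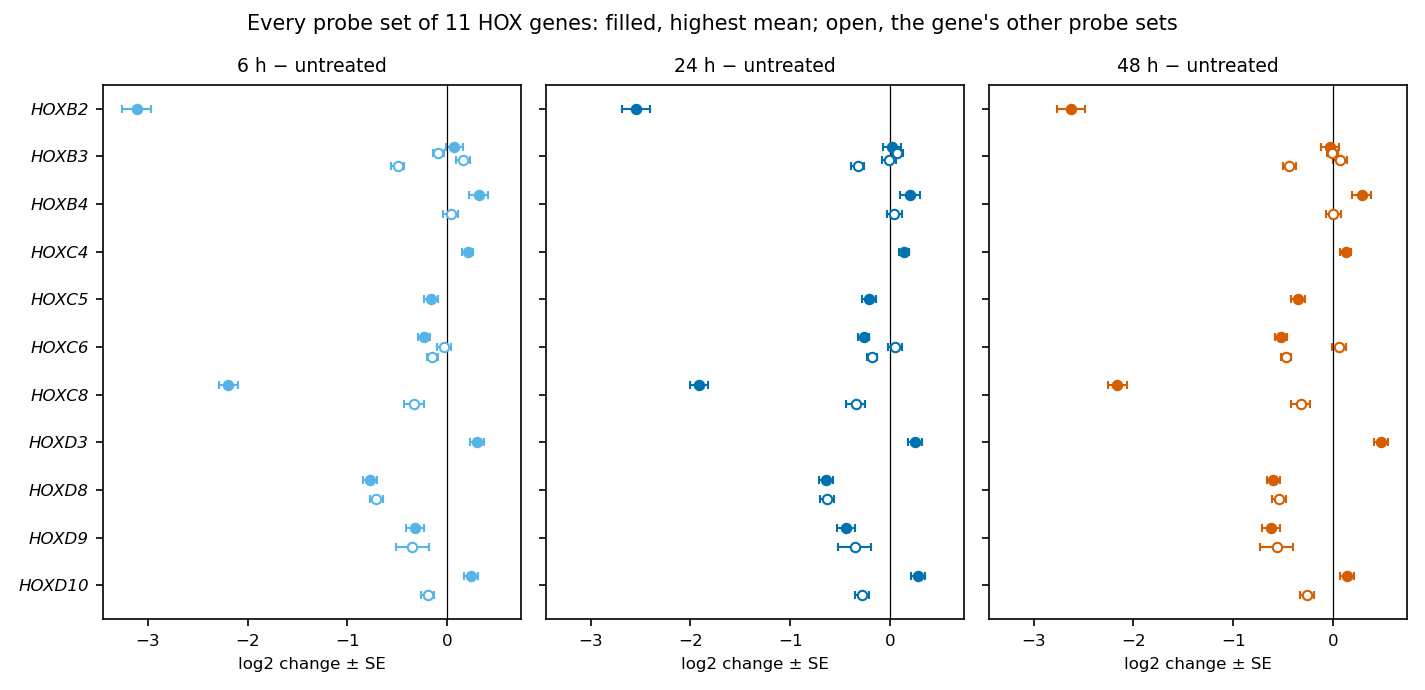
Log2 change against untreated cells (horizontal axis, bars are limma's SE) of every probe set of 11 HOX genes, with a panel each for 6, 24 and 48 h. Filled points are the probe sets of highest mean, which stand for the gene, and open points are the others. The probe sets of HOXD8 and HOXD9 fall together, those of HOXC8 fall by different amounts (-2.19 and -0.33 at 6 h), and those of HOXD10 and HOXB3 disagree.

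The 8 members that passed at no time against untreated cells were HOXB3, HOXB5, HOXB9, HOXB13, HOXC10, HOXC13, HOXD1 and HOXD4. Their changes lay between -0.1 and 0.12 and the 95% confidence intervals of the probe sets used reached from -0.32 to 0.33. The lowest adjusted p among them was 0.156. All 8 were low, with means over the 16 arrays of 3.66 to 4.15, where the dim limit was 3.65 and the lowest array median 4.5. Stable expression and little or no expression cannot be told apart for them.

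By cluster, at 6 h, 1 of 6 tested HOXB genes was higher and 1 lower, 1 of 7 HOXC genes was higher and 3 lower, and 2 of 6 HOXD genes were higher and 2 lower. The shares called at 6 h were 33.3%, 57.1% and 66.7%, beside 53.3% of all genes. At 48 h the counts were 1 higher and 1 lower in HOXB, 1 higher and 4 lower in HOXC, and 1 higher and 2 lower in HOXD, that is 33.3%, 71.4% and 50% called, beside 57% of all genes. The cluster medians at 48 h were 0.02 for HOXB, -0.23 for HOXC and 0.02 for HOXD, beside 0.07 over all genes tested. The clusters also differed in signal level. HOXB3, HOXB5, HOXB9 and HOXB13, HOXC10 and HOXC13, and HOXD1, HOXD4 and HOXD10 averaged only 3.66 to 4.15, where the dim limit was 3.65.

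Along the clusters, among positions 4 to 8, 2 of 8 tested genes were higher and 4 lower at 6 h, 1 higher and 4 lower at 24 h and 2 higher and 4 lower at 48 h, with medians of -0.13, -0.14 and -0.22. These are 75%, 62.5% and 75% of few genes, where 53.3%, 52.1% and 57% of all genes passed. Among positions 1 to 3, 1 of 4 was higher (HOXD3) and 1 lower (HOXB2) at each time, that is 50%, near the shares of all genes. Among positions 9 to 13, 1 of 7 was higher (HOXD10) and 1 lower (HOXD9) at 6 h and at 24 h, and none was higher and 2 were lower (HOXC9 and HOXD9) at 48 h. The share called there was 28.6% at each time, below the shares of all genes. Most of these genes were low. HOXB9, HOXB13, HOXC10, HOXC13 and HOXD10 averaged 3.79 to 4.15, between the dim limit of 3.65 and the lowest array median, 4.5. Position and signal level therefore cannot be told apart in this share. Without HOXD10 none of 6 was higher at 6 h or 24 h. No test was made of a difference between clusters or positions.

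Paralogues moved together in some groups and not in others. In group 8 both tested members, HOXC8 and HOXD8, fell at each time, and HOXB8 was dim. In group 4 HOXC4 and HOXB4 rose at 6 h and 48 h, though neither passed with cyclic loess, and HOXD4 did not pass. In group 9 HOXD9 fell at each time and HOXC9 at 48 h, and HOXB9 did not pass. In group 3 HOXD3 rose and HOXB3 did not pass, though a dimmer probe set of HOXB3 was lower. The members that did not pass were also low. HOXB3, HOXB9 and HOXD4 averaged 3.945, 4.15 and 3.96, against 6.94 for HOXD3, 6.09 for HOXD9 and 8.91 for HOXC4. Their lack of a call therefore does not show that they behaved differently from their paralogues.

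**Figure D3:**
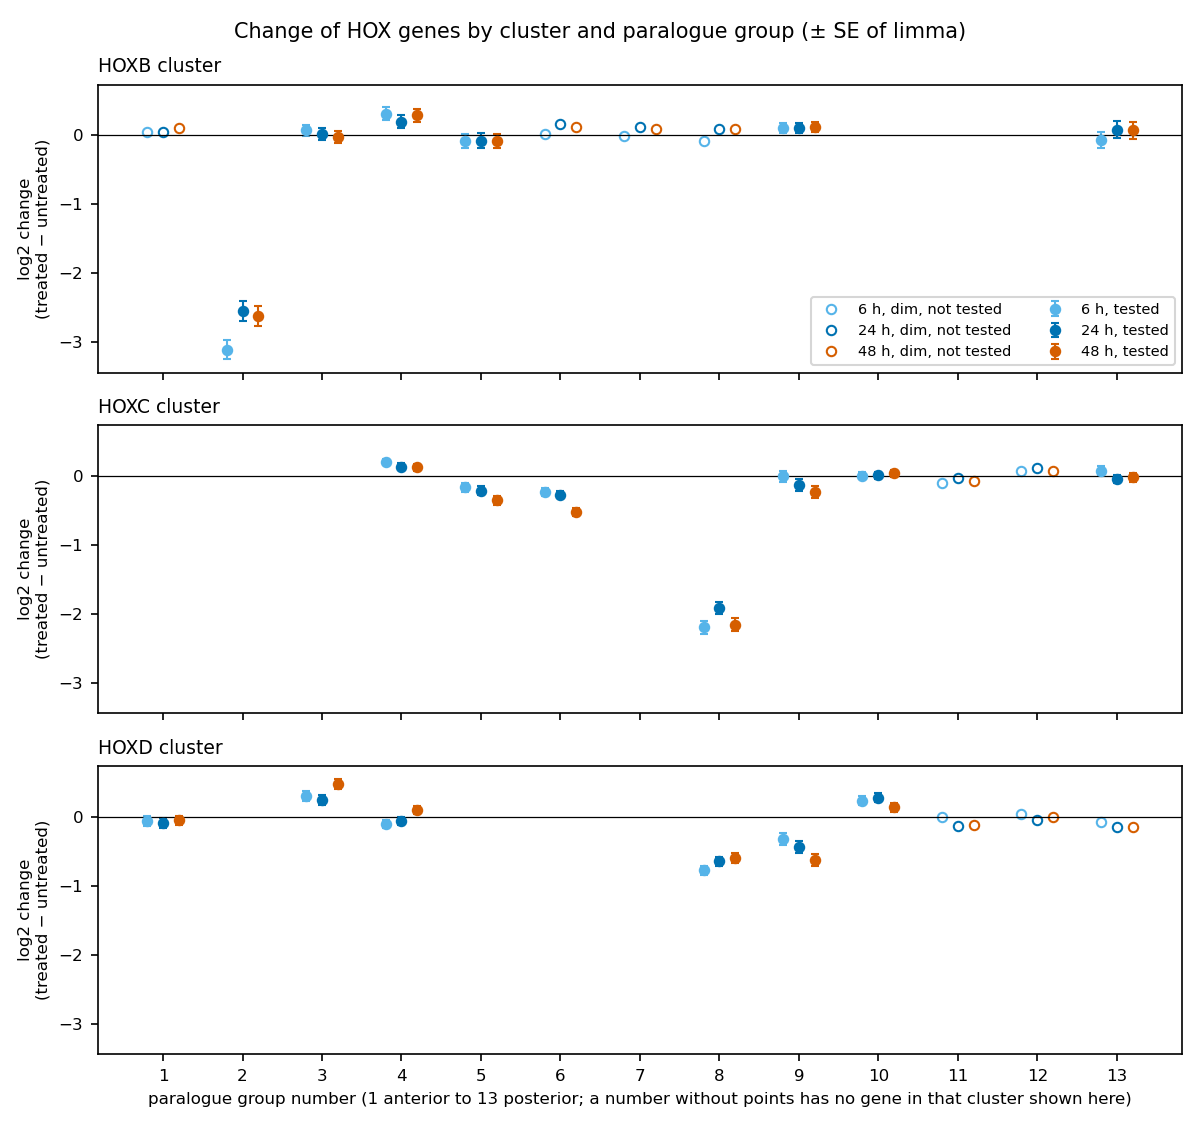
Log2 change against untreated cells (vertical axis) by paralogue group number (horizontal axis, head end to tail end), with a panel each for the HOXB, HOXC and HOXD clusters and a colour for each exposure time. Filled points are tested genes with limma's SE and open points are dim genes that were not tested. HOXB2 and HOXC8 stand far below the others, which lie between -0.77 and 0.48.

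Between exposure times the HOX genes changed little. At 24 h against 6 h, 1 of 19 passed, HOXB2, which was higher (background 2.4% of all genes, 1.55% higher and 0.855% lower). Its change, 24 h minus 6 h, was 0.56 ± 0.14 (1.48-fold, limma adjusted p = 0.049), with all 24 h arrays above all 6 h arrays. Both groups were low, with HOXB2 means of 4.23 at 6 h and 4.79 at 24 h. The call was lost in 13 of 26 alternatives, and over all 26 the limma adjusted p lay between 0.00643 and 0.167. At 48 h against 24 h, 3 of 19 passed, 2 higher and 1 lower (background 28.6%, of which 13.5% higher and 15.1% lower). HOXC6 fell further by 0.25 ± 0.06 (change -0.25, adjusted p = 0.00266), and HOXD3 and HOXD4 were higher by 0.23 ± 0.07 (adjusted p = 0.0199) and 0.16 ± 0.05 (adjusted p = 0.0454). At 48 h against 6 h, 6 of 19 passed, 2 higher and 4 lower (31.6% of members, background 33.6%, of which 16.7% higher and 17% lower). HOXB2 was higher by 0.48 ± 0.14 (adjusted p = 0.0155), and stayed below untreated cells. HOXD4 was higher by 0.2 ± 0.05 (adjusted p = 0.0137). HOXC6 was lower (-0.28 ± 0.06, adjusted p = 0.000865), as were HOXD9 (-0.3 ± 0.09, adjusted p = 0.0164), HOXC5 (-0.19 ± 0.06, adjusted p = 0.0348) and HOXC9 (-0.23 ± 0.08, adjusted p = 0.0462). Most of these calls were lost when 1 array or another was left out. Between 48 h and 6 h, HOXB2 did not pass without 6 h replicate 3 (adjusted p = 0.0576), HOXD4 without 48 h replicate 2 (0.0531) or HOXD9 without 6 h replicate 4 or 48 h replicate 1 (0.0599 to 0.0628). The call of HOXC5 was lost without any 1 of 6 arrays (6 h replicates 1, 3 and 4 and 48 h replicates 1 to 3, adjusted p between 0.0565 and 0.121), and that of HOXC9 in 18 alternatives, among them 11 arrays left out singly. Between 48 h and 24 h, HOXD3 did not pass without 24 h replicate 3 or 48 h replicate 3 or 4 (adjusted p between 0.0543 and 0.0659), and HOXD4 without any 1 of 9 arrays (adjusted p between 0.0514 and 0.153). Conversely HOXC8 passed as lower at 48 h than at 24 h without any 1 of 3 arrays (untreated replicate 1 or 3, or 48 h replicate 4), and HOXD3 (3 arrays) and HOXD8 (5 arrays) as higher at 48 h than at 6 h. None of the 19 passed with a difference of at least 1.5-fold between times. Among all genes 0.278% did so higher and 0.0585% lower at 24 h against 6 h, 0.965% and 0.709% at 48 h against 24 h, and 1.58% and 1.02% at 48 h against 6 h.

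Of 8 tested TALE cofactor genes, 4 were higher and 2 lower at each time, with medians of 0.17, 0.17 and 0.2. That is 75% at each time, beside 53.3%, 52.1% and 57% of all genes. MEIS1, whose protein binds DNA beside HOX and PBX proteins, averaged 6.58 ± 0.11 at 6 h, 6.39 ± 0.12 at 24 h and 6.63 ± 0.06 at 48 h, against 7.36 ± 0.16 in untreated cells (SD, n = 4 each). It fell at all 3 times (changes -0.78, -0.97 and -0.73, adjusted p = 2.26e-07, 1.53e-08 and 3.67e-07). PBX3 was lower at each time (changes -0.53, -0.47 and -0.19), and higher at 48 h than at 24 h (difference 0.28, adjusted p = 4.87e-05). PBX4 rose by 0.38, 0.42 and 0.95, and PKNOX1 rose by 0.51, 0.52 and 0.34. MEIS2 did not pass (0.11, 0.11 and 0.09, adjusted p = 0.105, 0.131 and 0.187).

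The Polycomb and H3K27 demethylase list joins genes that hold HOX clusters silent with demethylases that remove the Polycomb mark. Of its 21 tested genes, 10 were higher and 3 lower at 6 h, 7 higher and 4 lower at 24 h, and 7 higher and 5 lower at 48 h. The medians were 0.12, 0.1 and 0.02. The shares that passed, 61.9%, 52.4% and 57.1%, were near those of all genes (53.3%, 52.1% and 57%). EZH2, the methyltransferase of Polycomb repressive complex 2, changed by -0.16 at 6 h (adjusted p = 0.0607), and fell at 24 h (change -0.32, adjusted p = 0.000821) and 48 h (change -0.49, adjusted p = 8.41e-06). PHC3 was lower at each time (-0.46, -0.55 and -0.25) and its relative PHC1 was higher at each time (0.29, 0.28 and 0.45), both subunits of Polycomb repressive complex 1. KDM6B, a demethylase that removes the Polycomb mark, was higher at 6 h (0.47, adjusted p = 0.00232) and 48 h (0.28, adjusted p = 0.0471).

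Of 15 tested Trithorax and chromatin architecture genes, 5 were higher and 1 lower at 6 h, 3 higher and 1 lower at 24 h, and 4 higher and none lower at 48 h, with medians of 0.04, -0.02 and 0.09. Fewer passed, 40%, 26.7% and 26.7%, than among all genes (53.3%, 52.1% and 57%). KMT2A, the histone methyltransferase best known for activating HOX genes, was lower at 24 h (change -0.39, adjusted p = 0.0221) and did not pass at 6 h or 48 h (-0.24 and -0.15, adjusted p = 0.146 and 0.339). DOT1L, which works with KMT2A fusions in leukaemia, was higher at 48 h (0.37, adjusted p = 0.000854).

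Of 10 tested genes of the retinoic acid pathway, 2 were higher and 4 lower at 6 h, and 3 higher and 4 lower at 24 h and at 48 h, with medians of 0.09, 0.16 and -0.02. That is 60%, 70% and 70%, beside 53.3%, 52.1% and 57% of all genes. CRABP2, which carries retinoic acid to its receptors, averaged 4.95 ± 0.14 at 6 h, 5.31 ± 0.08 at 24 h and 5.59 ± 0.19 at 48 h, against 6.37 ± 0.22 in untreated cells (SD, n = 4 each). It fell at each time (changes -1.42, -1.06 and -0.78, adjusted p = 6.35e-09, 2.7e-07 and 6.97e-06), and was higher at 48 h than at 6 h (difference 0.64, adjusted p = 0.000223). RARB, a retinoic acid receptor that is itself induced by retinoic acid, changed by -1.06, -0.81 and -0.74 (adjusted p = 1.34e-08, 3.69e-07 and 8.58e-07). The retinaldehyde reductase DHRS3 was lower too (-0.59, -0.55 and -0.56), while ALDH1A3, which makes retinoic acid, was higher at 24 h and 48 h (0.33 and 0.63). Whether these changes bear on HOXB2 was not tested.

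Of 9 tested genes that flank the clusters, 4 were higher and 1 lower at 6 h, 4 higher and none lower at 24 h and 5 higher and 2 lower at 48 h, that is 55.6%, 44.4% and 77.8%, beside 53.3%, 52.1% and 57% of all genes. LNPK and MTX2, which lie beside the HOXD cluster, were higher at each time (0.46, 0.53 and 0.43 for LNPK, and 0.25, 0.31 and 0.34 for MTX2). Of 2 tested upstream activators, CDX1 was higher at 6 h (0.43, adjusted p = 0.00389) and GDF11 lower at 48 h (change -0.56, adjusted p = 9.01e-06). Of the 18 non-coding transcripts of the clusters that were listed, 1 was measured, HOXB-AS3, and it was dim.

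**Figure D4:**
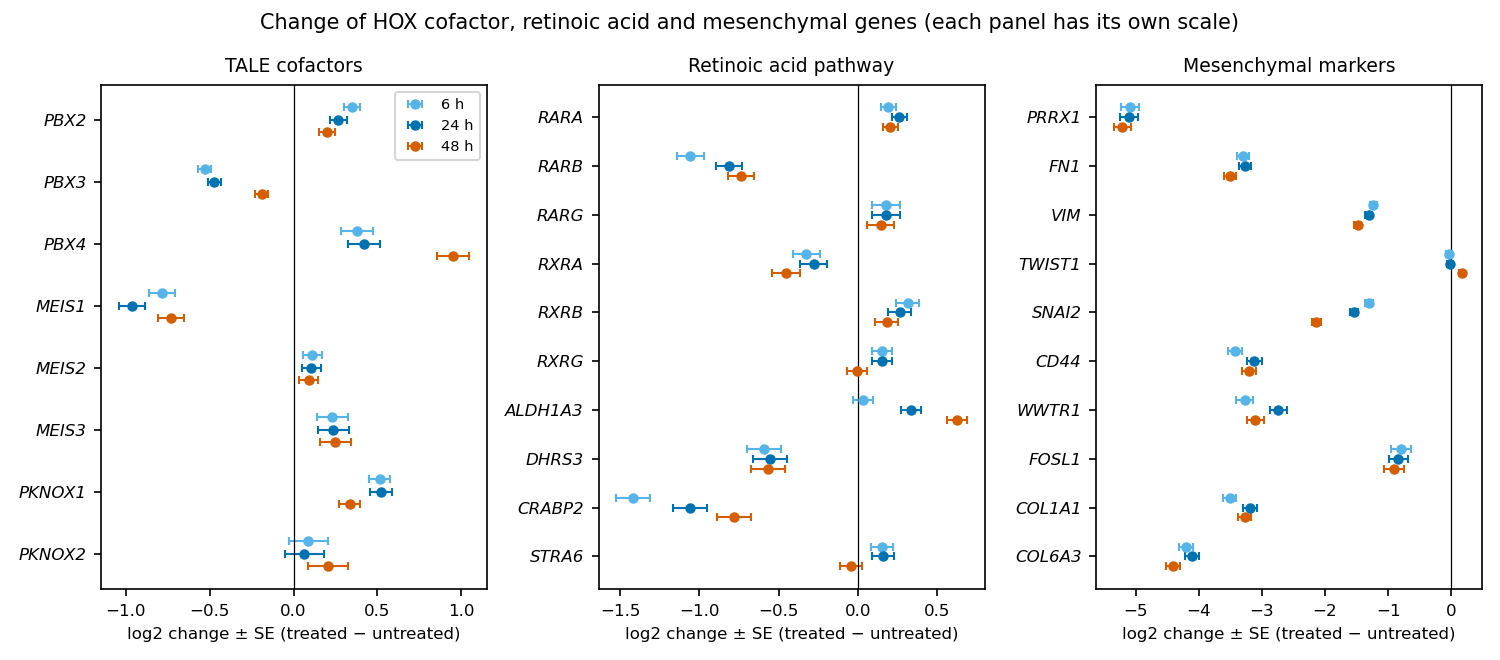
Log2 change against untreated cells (horizontal axis, a scale of its own in each panel, bars are limma's SE) at 6, 24 and 48 h of the tested TALE cofactor, retinoic acid pathway and mesenchymal marker genes. MEIS1, PBX3, CRABP2 and RARB lie below 0 at each time, and PRRX1 (-5.1 at 6 h) lies farther below 0 than any HOX gene.

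Markers of cell identity moved in the same comparisons. Of 10 tested mesenchymal markers, 9 were lower and none higher at 6 h and 24 h, and 9 lower and 1 higher at 48 h, with medians of -3.29, -2.93 and -3.16. Their summed level, on the linear scale, was 10775 to 11480 at 6 h, 10939 to 11142 at 24 h and 10990 to 11611 at 48 h, against 20173 to 23143 in untreated cells. TWIST1, a bright gene that did not pass at 6 h or 24 h and was higher at 48 h, made up 53.7% to 64% of the sum in treated cells and 28.3% to 29.6% in untreated cells. Without it the sums of the other 9 were 4505 to 5314 at 6 h, 4518 to 4985 at 24 h and 3956 to 4411 at 48 h, against 14218 to 16396 in untreated cells. The homeobox gene PRRX1, a defining mesenchymal regulator, averaged 3.98 ± 0.36 at 6 h, 3.96 ± 0.14 at 24 h and 3.86 ± 0.18 at 48 h, against 9.07 ± 0.15 in untreated cells (SD, n = 4 each). Of 8 tested adrenergic markers, 8, 7 and 7 were higher at 6, 24 and 48 h and none lower, with summed levels of 22011 to 23220, 22891 to 23881 and 24057 to 25996, against 18090 to 18816 in untreated cells. Among all tested genes, 36.6%, 35.3% and 36% were higher and 16.7%, 16.9% and 21% lower at these times. Of 17 measured markers of epithelial, endothelial and haematopoietic cells, 9 lay above the dim limit. Among these, 0 of 3 tested epithelial and 0 of 2 tested haematopoietic markers passed, and of 4 endothelial markers KDR was higher at 6 h. The array measures RNA of a whole culture, so fewer cells of a type and less RNA per cell cannot be told apart. The part of the marker shift in the changes of HOXB2, HOXC8 and the other members was not tested.

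Over all tested genes, Pearson correlations between arrays were 0.996 to 0.999 within groups and 0.968 to 0.978 between untreated and treated arrays. Array medians lay between 4.5 and 4.62, and no pair of arrays shared more than 4.55% of its values.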

How the data were processed

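Gene expression was measured on 16 U219 arrays, 4 groups of 4. Per probe set, the authors deposited a log2 value made with RMA (robust multi-array average), per the submitters' processing notes. RMA corrects background, equalises distributions between arrays and summarises probes. For its software version, the sources used here give nothing. Because distributions were equalised, a change in total RNA per cell cannot be seen.

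Among 49386 probe sets, 93 were controls and 45253 had 1 gene symbol in GEO's platform annotation. The 18239 genes were represented by their probe set of highest mean, which mattered for the 11822 genes with several. The lowest 25% of genes were left out as dim, which left 13680 with a mean of at least 3.65. Tests were two-sided and used limma 3.58.1 (R 4.3.3), with 1 linear model over all 16 arrays, a coefficient for each group and moderated variances (eBayes). Benjamini-Hochberg adjustment ran over all tested genes within each comparison, at 0.05. Values after ± are standard errors unless given as SD, and the number of arrays limits the precision. Linear sums of markers are sums of 2 to the power of the log2 value. Coordinates are RefSeq's for GRCh38.p14, and all 29 members matched by Entrez identifier.

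The members, lists and tests were chosen with earlier results of these data known. Members could all be named. Values in every array were planned for members changed at least 1.5-fold against untreated cells, or 1.25-fold between times, and are also given for others. From each list, up to 4 members of largest change and a few chosen genes were named. Alternatives were the mean of probe sets, every probe set tested, no filter or a 50% filter on dim genes, subtracted array medians, repeated quantile normalization, cyclic loess, eBayes with trend and robust, weights per array, replicate number as a block, the 8 compared arrays alone, an adjusted p of 0.01, a 1.5-fold minimum, and leaving out single arrays. The counts without HOXD10 and the marker sum without TWIST1 were chosen after seeing the data.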

Additional observations from a re-analysis of the deposited data

Results flagged for a closer look

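In 3 of 76 groups of 4 arrays, 1 array stood apart from the rest by Dixon's 95% criterion on the gap over the range, which chance gives in about 1 of 20 groups. HOXC4 was 8.88 in untreated replicate 3 and 8.75 to 8.77 in the others, with a gap of 0.846 of the range. HOXC5 was 5.24 in replicate 4 at 24 h and 5.35 to 5.37 in the others, also 0.846. HOXC9 was 5.69 in replicate 4 at 6 h and 5.3 to 5.36 in the others, likewise 0.846.

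The change against untreated cells differed between exposure times for 7 members in 10 comparisons by limma's test of the difference. HOXB2 was higher at 24 h than at 6 h by 0.56 and at 48 h than at 6 h by 0.48. HOXC6 differed by -0.25 (48 h against 24 h) and -0.28 (48 h against 6 h), HOXC5 by -0.19, HOXC9 by -0.23 and HOXD9 by -0.3 (48 h against 6 h). HOXD3 differed by 0.23 (48 h against 24 h), and HOXD4 by 0.16 (48 h against 24 h) and 0.203 (48 h against 6 h). Of these 10 differences, 2 passed in every refit and 8 were lost in some, and 0 reached 1.5-fold (limma).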

How the results depend on the processing

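The falls of HOXB2, HOXC8, HOXC6, HOXD8 and HOXD9 passed at all 3 times, with their probe sets of highest mean or the mean of all, in every refit that gave them a value, and at an adjusted p of 0.01. HOXC6 at all 3 times and HOXD9 at 6 h and 24 h fell short of 1.5-fold. Of the 29 called changes against untreated cells, 18 passed in every refit and 11 were lost in some, while 22 passed at an adjusted p of 0.01 and 10 at a minimum of 1.5-fold. In some refits 13 further calls appeared. HOXD10 at 24 h turned to -0.00375 with the mean of its probe sets (adjusted p = 0.958). The numbers of HOX genes called moved by over 1.5 times as follows. A minimum of 1.5-fold left 3, 3 and 4 at 6, 24 and 48 h against untreated cells and 0, 0 and 0 between times. An adjusted p of 0.01 left 0 for 24 h against 6 h, 1 for 48 h against 24 h and 1 for 48 h against 6 h. Leaving out the lowest 50% of genes left 5 tested, all 5 called at each of the 3 times, and 0 for 24 h against 6 h, as did no filter on dim genes (0). Under that 50% filter more of all genes passed too, 5809, 5770 and 6295 of 9120 at 6, 24 and 48 h. Array weights gave 2 for 24 h against 6 h and 6 for 48 h against 24 h. Each 0 is from limma. Whether the replicate numbers pair the arrays is not settled. Deviations from the group mean correlated between -0.152 and 0.181 for same-numbered arrays and between -0.285 and 0.262 for arrays of other numbers. For 2 of 16 arrays the own number gave the highest correlation in every other group. With the replicate number as a block the count for 24 h against 6 h was 0.

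With each array left out in turn, the counts were 9 to 10 at 6 h, 8 to 10 at 24 h and 7 to 11 at 48 h against untreated cells, 0 to 1 for 24 h against 6 h, 1 to 4 for 48 h against 24 h and 3 to 8 for 48 h against 6 h. The count of 3 came without 6 h replicate 4 or 48 h replicate 1, and that of 1 for 48 h against 24 h without 24 h replicate 3. Cyclic loess lowered the share of higher calls among all genes to 49.4%, 49.5% and 49% at 6, 24 and 48 h, against 68.7%, 67.6% and 63.1% as deposited, and moved the HOX medians to -0.11, -0.12 and -0.08. The cause was not tested.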
